A study of Mus musculus with 8 samples.

Results

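Among the 3 tumors grown from vector-carrying melanoma cells, 2 were each sequenced as 2 separate portions, and the 4 libraries of these portions, of 8 libraries in all, are described here. The members were chosen by the sample titles alone: Vector_1_1 and Vector_1_2 are portions 1 and 2 of vector tumor 1, and Vector_2_1 and Vector_2_2 are portions 1 and 2 of vector tumor 2. The study set tumors of the mouse melanoma line B16-mhgp100 (B16 cells carrying the melanocyte antigen gp100) with over-expression of Colq against tumors with the vector alone. Cells of either kind were implanted under the skin of C57BL/6 mice, and every mouse, vector and Colq alike, received anti-PD1, an antibody that blocks a checkpoint receptor of T cells. The antibody was given at 200 µg per dose from day 10, 2 doses a week for 4 doses, with harvest 1 day after the final dose. The remaining libraries are 1 of vector tumor 3 and 1 from each of 3 Colq tumors. The labels do not say where in a tumor a portion was cut, whether skin or muscle was trimmed away, how old the mice were, or whether either cell line was 1 clone.

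A subcutaneous melanoma lies between the epidermis and dermis above and the thin muscle layer and body wall below. Its mass holds tumor cells with blood vessels, fibroblasts and infiltrating leukocytes, and its edges can carry host skin and muscle. Keratinocytes, muscle fibers, fibroblasts and red cells each make a few transcripts that other cells hardly make, so RNA of a whole piece of tissue reads out their presence. In such bulk RNA, fewer cells of a type and less RNA per cell cannot be told apart.

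Levels are TPM, an abundance scaled to transcript length and to a fixed total per library, and a difference is portion 1 minus portion 2 of log2(TPM + 1), a scale that shrinks differences of low genes. Of 28918 genes in the table, 13824 had a mean of at least 1 TPM over the 4 portions. At that limit Gpr153, Gm56599 and Grm8 stood at 1.0 TPM and were kept, and B130034C11Rik at 0.9975 TPM was left out. A gene was called past 2-fold where its difference was at least 1 in size. Each portion is 1 library, so there is no replicate check, no test and no p-value for any difference below. The labels do not say whether portion numbers follow a position in the tumor, so whether portion 1 of one tumor corresponds to portion 1 of the other is unknown.

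TPM keeps no depth, so the number of reads behind a value is unknown. The 4 portions held between 19887 and 20894 genes above 0, with mitochondrially encoded genes at 3.73% to 4.25% of TPM and cytosolic ribosomal protein genes at 14.1% to 15.8%. Colq stood at 0, 0.24, 0.1 and 0.03 TPM in the portions and between 3.86 and 5.03 TPM in the Colq libraries. The melanocyte genes that define the tumor cells were abundant in every portion, with Pmel (the gp100 protein of the melanosome) between 6026 and 6977 TPM. The labels name no sequencing batch.

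In tumor 1, 413 genes were past 2-fold between the portions, which is 2.99% of the 13824. Portion 1 was higher for 247 of them (1.79%) and portion 2 for 166 (1.2%). In tumor 2, 514 genes were past 2-fold (3.72%), of which 303 were higher in portion 1 (2.19%) and 211 in portion 2 (1.53%). The median difference over all genes was -0.011 in tumor 1 and -0.11 in tumor 2, and the SD over genes was 0.53 and 0.52. Differences past 4-fold were found for 167 genes in tumor 1 and 130 in tumor 2.

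Among the 44 gene lists, those of skin and of skeletal muscle had the medians furthest from 0 (by the larger of the 2 tumors), while the furthest single genes included numbered models, pseudogenes and others described later. Genes of keratinocytes, the cells of the epidermis, were higher in portion 1 of both tumors, with 23 of the 24 measured members past 2-fold in tumor 1 and 12 of 24 in tumor 2, all in that direction. The list's median difference was 3.56 in tumor 1 and 0.92 in tumor 2, beside -0.011 and -0.11 over all genes. Genes of skeletal muscle were higher in portion 2 of tumor 1 (12 of 23 measured members, median -1.05) and in portion 1 of tumor 2 (16 of 23, median 1.31). The keratinocyte list holds 40 genes and the muscle list 38, and a measured member is one at or above the 1 TPM limit. Many members reached that limit through the portion in which they were high, so the counts and medians describe the lists and support nothing further. With every member counted that was above 0 in at least 1 portion, the medians were 2.04 and 0.34 for the keratinocyte list and -0.28 and 0.88 for the muscle list.

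**Figure D1:**
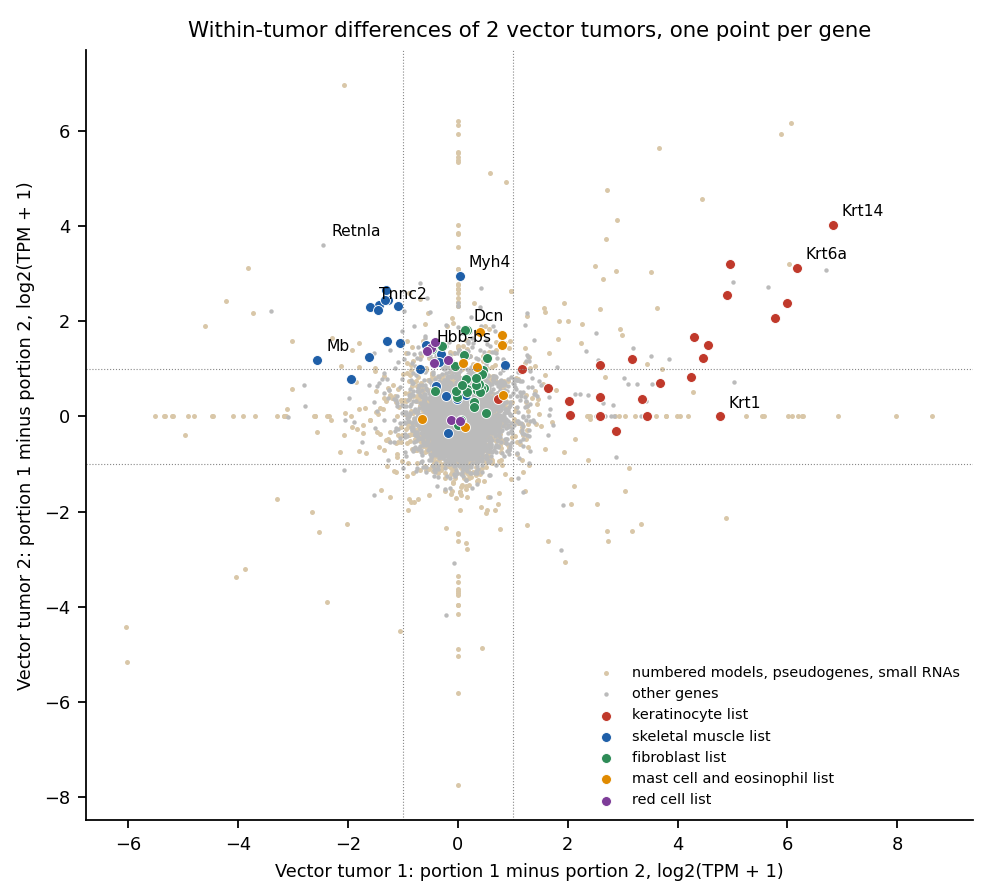
Each point is 1 of 13824 genes, with its difference between portions 1 and 2 of vector tumor 1 on the x axis and of vector tumor 2 on the y axis, both in log2(TPM + 1); dotted lines mark 2-fold. Keratinocyte genes (red) extend to the right, up to 6.83 for Krt14, muscle genes (blue) lie to the upper left, and most genes sit near 0 in both tumors.

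Basal keratins form the intermediate filaments of dividing epidermal cells. Krt14 stood at 133 TPM in portion 1 of tumor 1, 0.18 in portion 2, 15.4 in portion 1 of tumor 2 and 0 in portion 2. Its partner Krt5 stood at 32.6, 0.09, 8.31 and 0 TPM in the same order. Both were high in portion 1 and at or near 0 in portion 2 of each tumor, with differences of 6.83 and 4.03 for Krt14 and of 4.95 and 3.22 for Krt5. Vector tumor 3 held 0.18 TPM of Krt14, near the level of the second portions, and the Colq libraries held between 3.99 and 5.87 TPM.

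Krt6a, Krt6b and Krt16 are keratins of the hair follicle and footpad that the epidermis between follicles makes when it is wounded or hyperproliferative. Krt6a stood at 73.9, 0.04, 7.75 and 0 TPM over the 4 portions, and Krt16 at 62.8, 0, 4.2 and 0. In the Colq libraries Krt6a was between 0.42 and 0.63 TPM and Krt16 was at 0 to 0.04, so these keratins were scarce there although Krt14 and Krt5 were present. The small proline-rich genes of the cornified envelope went the same way, with Sprr1a at 28.8, 0, 4.91 and 0 TPM and Sprr1b at 22.6, 0, 1.82 and 0. Of 7 members grouped as activated keratinocyte genes (a grouping made after the values were seen), 7 were past 2-fold in tumor 1 and 6 in tumor 2.

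Keratins and envelope proteins of the differentiating upper layers separated the tumors. Krt1 stood at 26.2 TPM in portion 1 of tumor 1 and at 0 in the other 3 portions. Krt10, its partner, stood at 15.5, 0.62, 0.29 and 0 TPM, and Lor, the main protein of the cornified envelope, at 10.6, 0.06, 0 and 0. Portion 1 of tumor 2 therefore held basal and activated keratinocyte transcripts while Krt1 and Lor were listed at 0. The 7 measured members of the differentiating group, chosen after the values were seen, were all past 2-fold in tumor 1 (median 2.60), and 1 of them, Krtdap, was past it in tumor 2 (median 0.029). The Colq libraries had another order again, with 11.5 to 13.7 TPM of Krt10 beside 3.99 to 5.87 of Krt14.

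Genes of skin outside the list behaved likewise. Sprr2a2, a further cornified envelope gene, stood at 103 TPM in portion 1 of tumor 1, 0 in portion 2, and 7.52 and 0 TPM in tumor 2. Cstdc5 and Stfa3, members of the cystatin A family of protease inhibitors, stood at 49.1, 0, 5.62 and 0 TPM and at 31.3, 0, 6.12 and 0 TPM. Calm4, a calcium-binding protein of skin, stood at 31.5 TPM in portion 1 of tumor 1 and at 0, 0.65 and 0 in the others. Copies of the Sprr2 and stefin genes are near-identical, so reads may be split between them and the values of single copies are uncertain. Lgals7, a galectin of stratified epithelium, was an exception in that it was abundant in all 4 portions, at 157, 93.9, 106 and 81.6 TPM, and it was the 1 measured member of the list that did not pass 2-fold in tumor 1.

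Hair follicle genes were too scarce to be set beside the epidermal ones. Of 30 listed with those of the sebaceous gland, 3 passed the limit (Dct, Mgst1 and Far2), and 0 of those were past 2-fold in either tumor. Dct is also on the melanin list, at 4323 to 6049 TPM in the portions, so this count says little about hair follicles. The inner root sheath keratins Krt25 and Krt71 were at 0 TPM in all 4 portions.

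Promoter sequences of a pair of keratin genes and a pair of muscle genes are shown because these genes moved together within a tumor. Each window is the 250 bases before the RefSeq transcription start (GRCm38.p6, which is not the build of the expression values), read 5′ to 3′ on the gene's strand. Capitals mark matches to CANNTG, the E-box bound by basic helix-loop-helix factors, which is its own reverse complement, and to TATAAA or its reverse complement TTTATA.
Krt14, chr11:100206031-100206280, minus strand: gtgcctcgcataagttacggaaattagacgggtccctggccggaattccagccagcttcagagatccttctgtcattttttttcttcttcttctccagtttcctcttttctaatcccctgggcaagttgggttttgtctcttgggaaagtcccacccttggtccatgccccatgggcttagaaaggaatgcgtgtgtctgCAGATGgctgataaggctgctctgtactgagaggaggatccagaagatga
Krt5, chr15:101712906-101713155, minus strand: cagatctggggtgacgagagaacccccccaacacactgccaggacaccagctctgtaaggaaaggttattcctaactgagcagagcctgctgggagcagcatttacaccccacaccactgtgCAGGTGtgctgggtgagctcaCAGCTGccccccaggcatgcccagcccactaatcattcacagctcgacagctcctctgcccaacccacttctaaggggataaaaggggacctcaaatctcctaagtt
Tnnc2, chr2:164779735-164779984, minus strand: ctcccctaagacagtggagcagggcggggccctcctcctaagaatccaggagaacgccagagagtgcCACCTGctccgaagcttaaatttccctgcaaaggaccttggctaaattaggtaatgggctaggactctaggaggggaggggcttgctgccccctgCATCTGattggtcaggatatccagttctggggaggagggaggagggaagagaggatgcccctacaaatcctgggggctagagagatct
Myl1, chr1:66945057-66945306, minus strand: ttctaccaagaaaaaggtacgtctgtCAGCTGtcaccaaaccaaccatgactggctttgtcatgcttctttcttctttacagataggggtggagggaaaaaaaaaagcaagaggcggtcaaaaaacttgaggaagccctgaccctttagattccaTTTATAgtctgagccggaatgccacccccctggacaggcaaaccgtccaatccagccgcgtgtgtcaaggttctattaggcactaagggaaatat
The windows hold 1 CANNTG match in Krt14, 2 in Krt5, 2 in Tnnc2 and 1 in Myl1. CANNTG was present in 66.2% of all 32851 such windows, in 15 of 20 windows of 17 measured keratinocyte genes and in 18 of 20 windows of 17 measured muscle genes. TATAAA, on either strand, was present in 12.4% of all windows, in 7 of 20 keratinocyte windows and in 5 of 20 muscle windows. A match describes these letters and does not mark a binding site.

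Skeletal muscle members differed in the opposite portion numbers in the 2 tumors. Tnnc2, the calcium sensor of fast muscle troponin, stood at 5.15 and 17.7 TPM in portions 1 and 2 of tumor 1 and at 22.8 and 3.84 in those of tumor 2. Myl1, a fast myosin light chain, stood at 3.55, 11.2, 14.8 and 2.08 TPM in the same order, and Tnnt3, fast troponin T, at 8.01, 23.8, 21.3 and 3.71. For each of these genes the 2 highest portions were portion 2 of tumor 1 and portion 1 of tumor 2. Of the 12 members past 2-fold in tumor 1, 11 were also past it in tumor 2, each in the opposite portion number. Vector tumor 3 held 3.67 TPM of Tnnc2, close to the lower portions, and the Colq libraries between 127 and 143.

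Fast fiber genes made up most of this signal. Atp2a1, the calcium pump of the fast fiber sarcoplasmic reticulum, stood at 3.24, 9.44, 11.8 and 1.03 TPM. Pvalb, the calcium buffer parvalbumin of fast fibers, stood at 0.59, 3.0, 4.46 and 0 TPM. Acta1, the actin of the muscle thin filament, was an abundant member, at 20.7, 45.2, 45.9 and 8.37 TPM. Of 10 measured fast fiber genes (a grouping made after the values were seen), 8 were past 2-fold in tumor 1 and 9 in tumor 2. The slow fiber group had 1 measured member, Tnnt1, with differences of -0.22 and 0.43, and the slow myosin Myh7 was at 0.04 TPM or below in all 4 portions.

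The 2 muscle-rich portions were not alike in every muscle gene. Myh4, the heavy chain of the fastest fibers, stood at 9.45 TPM in portion 1 of tumor 2 and at 1.33, 1.27 and 0.34 TPM in portions 1 and 2 of tumor 1 and portion 2 of tumor 2. Myh1, the heavy chain of another fast fiber type, was highest in portion 2 of tumor 1, at 9.85 TPM, and stood at 1.81, 2.5 and 1.02 TPM in the others. Mb, the oxygen store myoglobin of oxidative fibers, was also highest in portion 2 of tumor 1, at 4.89 TPM, with 0 in portion 1 of that tumor, 1.95 in portion 1 of tumor 2 and 0.29 in its portion 2. Myod1 and Myog, transcription factors of muscle precursors, were under the 1 TPM limit, with Myog at 0.13, 0.79, 1.03 and 0.41 TPM.

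**Figure D2:**
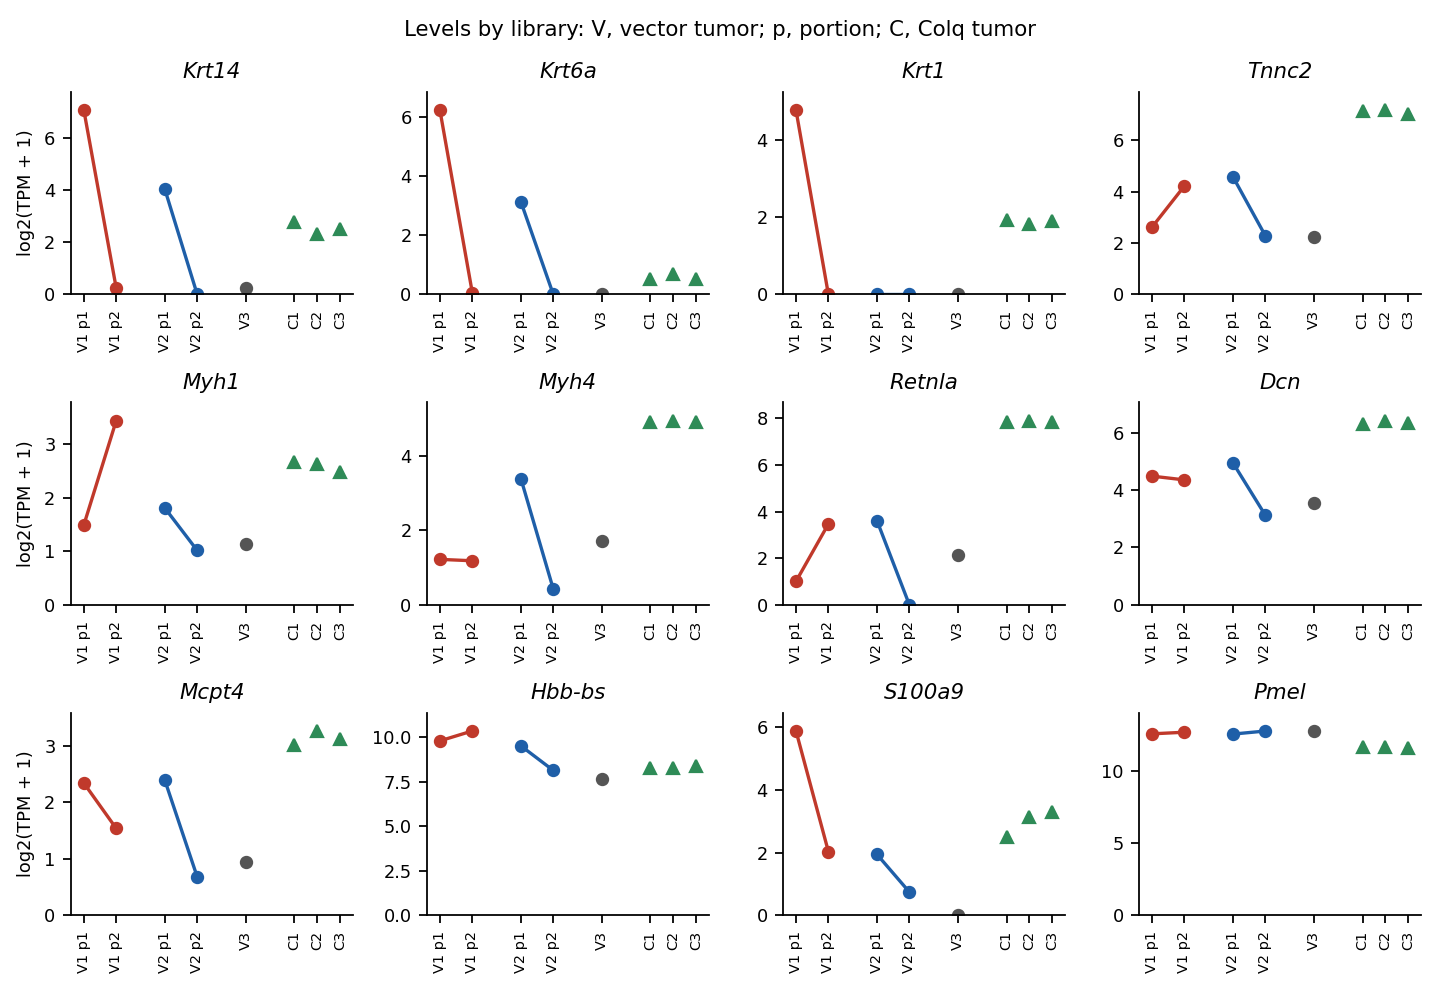
Each panel gives the level of 1 gene, as log2(TPM + 1), in all 8 libraries: portions of vector tumor 1 joined in red, portions of vector tumor 2 joined in blue, vector tumor 3 in grey and the Colq tumors as green triangles. Krt14 and Krt6a go down from portion 1 to portion 2 in both tumors, Tnnc2 goes up in tumor 1 and down in tumor 2, and Pmel is nearly level, between 6026 and 6977 TPM in the portions.

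Fibroblast genes differed in tumor 2, where 7 of 29 measured members were past 2-fold, all higher in portion 1, and in tumor 1 none of the 29 was past it. Of all genes, 2.99% were past it in tumor 1 and 3.72% in tumor 2, with 1.79% and 2.19% higher in portion 1. The fibroblast list's medians were 0.18 and 0.66. Dcn, a small proteoglycan that coats collagen fibrils, stood at 21.3, 19.4, 29.6 and 7.65 TPM. Dpt and Pi16, genes of a fibroblast state found in many tissues, stood at 3.49, 3.02, 4.58 and 0.58 TPM and at 2.51, 3.27, 4.06 and 0.81 TPM. For these 3 genes portion 2 of tumor 2 was the lowest and portion 1 of tumor 2 the highest. The collagen Col3a1 had a smaller difference, at 115, 82.9, 102 and 51.8 TPM (0.47 and 0.96). Genes of fibrillar collagen and matrix assembly, which share Dcn, Lum and Col3a1 with the fibroblast list, had medians of 0.41 and 0.55, with 1 of 29 members past 2-fold in tumor 1 (Tnc, a matrix protein of remodelling tissue, at 34.2 and 15.5 TPM) and 5 in tumor 2. Among those 5 were Lox, the enzyme that crosslinks collagen, at 11.5 and 3.47 TPM, and Vcan, a large proteoglycan, at 5.91 and 1.01 TPM in portions 1 and 2.

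In tumor 2, the difference also ran with gene length. Genes under 500 bases of exon had a median difference of 0.14, and those of 8000 bases or more had -0.39, so long transcripts were lower in portion 1. In tumor 1 the same medians were 0 and 0.037. With this trend removed, 12 fibroblast members and 9 matrix members were past 2-fold in tumor 2, in place of 7 and 5, and all were higher in portion 1.

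The matrix proteases that were past 2-fold were higher in portion 1 of either tumor. Mmp3, stromelysin, stood at 23.4 and 9.41 TPM in tumor 1 and at 21.0 and 4.79 in tumor 2. Mmp13, a collagenase, stood at 5.18, 1.53, 10.1 and 3.94 TPM. Of 23 measured protease and inhibitor genes, 3 were past 2-fold in tumor 1 and 4 in tumor 2, beside 2.99% and 3.72% of all genes. Of all genes past 2-fold, 59.81% in tumor 1 and 58.95% in tumor 2 were also higher in portion 1. Mmp3 and Mmp13 were the 2 of the 23 that were past 2-fold in both tumors. Across all genes, 0.933% were past 2-fold in both tumors.

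Macrophage genes as a list had medians of 0.12 and 0.30, beside -0.011 and -0.11 over all genes. Of the 29 measured members, 22 were above 0 in tumor 1 and 26 in tumor 2, beside 47.3% and 34.0% of all genes. A subset was past 2-fold in tumor 2. Retnla, which macrophages secrete after interleukin 4 or 13 signals, stood at 1.01 and 10.1 TPM in portions 1 and 2 of tumor 1 and at 11.2 and 0 in those of tumor 2. Its differences of -2.46 and 3.61 had the signs of the muscle genes. F13a1 (clotting factor XIII A, made by tissue macrophages) stood at 7.59, 8.99, 17.6 and 3.87 TPM, Folr2 (a folate receptor of resident macrophages) at 10.6, 10.4, 22.4 and 7.86, and Cd163 (the haemoglobin scavenger receptor) at 3.56, 3.30, 4.99 and 0.77. These 3 differed past 2-fold in tumor 2 and were within 0.22 on the log2 scale in tumor 1. Of 29 measured members, 2 were past 2-fold in tumor 1 (Retnla and Cd14) and 7 in tumor 2, the latter all higher in portion 1. The shares of all genes past 2-fold were 2.99% and 3.72%, and 1.79% and 2.19% with portion 1 higher. Cd14, the lipopolysaccharide co-receptor, was past 2-fold in both tumors with portion 1 higher, at 8.41, 2.88, 8.14 and 2.82 TPM.

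Mast cell genes differed in tumor 2. Mcpt4 and Cma1, chymases of connective tissue mast cells, stood at 4.06, 1.90, 4.24 and 0.60 TPM and at 3.43, 1.55, 3.05 and 0.42 TPM. Of 8 measured members of the mast cell and eosinophil list, 5 were past 2-fold in tumor 2 and 0 in tumor 1, with medians of 1.08 and 0.38. Over all genes 3.72% were past 2-fold in tumor 2 and 2.99% in tumor 1. With a limit of 5 TPM Kit was the 1 member left, with differences of -0.65 and -0.057, and melanocytes also make Kit. With members above 0 in any portion the medians were 0.11 and 0.25. The eosinophil granule genes Epx and Prg2 were at 0 in all 4 portions, so the signal was of mast cell proteases and of Ear2, a ribonuclease of eosinophils and macrophages, at 2.74, 1.81, 3.03 and 0.18 TPM.

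Genes of the neutrophil list were led by S100a8 and S100a9, the calprotectin subunits, which neutrophils and activated keratinocytes both make. S100a9 stood at 58.0 and 3.09 TPM in tumor 1 and at 2.84 and 0.67 in tumor 2, and S100a8 at 55.1, 3.93, 3.19 and 0.74. The high value was that of the portion with the most keratin RNA. The granule genes Ngp and Camp, which developing neutrophils make, were at 0 TPM in all 4 portions, and Csf3r, the receptor of the neutrophil growth factor G-CSF, differed less, at 2.72, 1.57, 3.63 and 3.07 TPM. Whether the keratinocyte genes had a part in the S100a8 and S100a9 difference was not tested. Of 13 measured members, 4 were past 2-fold in each tumor, all higher in portion 1. Among all genes, 2.99% and 3.72% were past 2-fold, 1.79% and 2.19% with portion 1 higher. In tumor 1 they included Mmp9, at 3.1 and 0.6 TPM, and Cxcl2, at 4.57 and 0.73. Above 0 in tumor 1 were 11 of the 13, beside 47.3% of all genes, while Clec4e and G0s2 were below 0.

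Globin transcripts, which mark blood in the tissue, differed in tumor 2. Hbb-bs, adult beta globin, stood at 883, 1299, 727 and 279 TPM, and Hba-a1, alpha globin, at 419.5, 588, 304 and 112. All 4 globin genes were past 2-fold in tumor 2, with differences of 1.12 to 1.57, and in tumor 1 their differences were -0.56 to -0.42, toward portion 2. Alas2, the first enzyme of haem synthesis in red cells, stood at 7.05, 8.08, 4.10 and 1.25 TPM. Hba-a1 and Hba-a2 are near-identical copies, and the split between them is uncertain. Vector tumor 3, at 198 TPM of Hbb-bs, was lower than every portion.

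Chemokine genes had medians of 0.34 and 0.36, with 4 of 26 measured members past 2-fold in tumor 1 and 7 in tumor 2, all higher in portion 1. The shares over all genes were 2.99% and 3.72%, with 1.79% and 2.19% past 2-fold and higher in portion 1. Ccl21a, a chemokine of lymphatic vessels that guides dendritic cells, was the 1 member past 2-fold in both, at 10.3, 2.24, 4.47 and 1.66 TPM. Its copies are near-identical, which makes the value uncertain. Ccl8 and Ccl6, made by macrophages, differed in tumor 2, at 246 against 65.4 TPM and at 66.5 against 17.4 TPM, and stood at 124 against 92.3 TPM and at 32.9 against 32.7 TPM in tumor 1. In tumor 1 the members past 2-fold included the neutrophil attractants Cxcl1, at 2.76 and 0.52 TPM, and Cxcl2, at 4.57 and 0.73.

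Acute phase and inflammatory genes were higher in portion 1 where they were past 2-fold. This held for 3 of 19 members in tumor 1 and 6 in tumor 2. Of all genes, 2.99% and 3.72% were past 2-fold, 1.79% and 2.19% with portion 1 higher. Saa3, a serum amyloid protein made locally by macrophages and stromal cells, stood at 60.3, 44.9, 87.8 and 12.7 TPM, the largest difference of the list at 2.70 in tumor 2. Lcn2, an iron-binding protein of neutrophils and epithelia, stood at 6.68, 5.53, 9.33 and 1.42 TPM. In tumor 1 the members were Hp (haptoglobin, at 42.0 and 16.7 TPM), Il1b (at 5.25 and 1.79) and Il1rn, the inhibitor of interleukin 1 signalling (at 12.8 and 5.86).

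**Figure D3:**
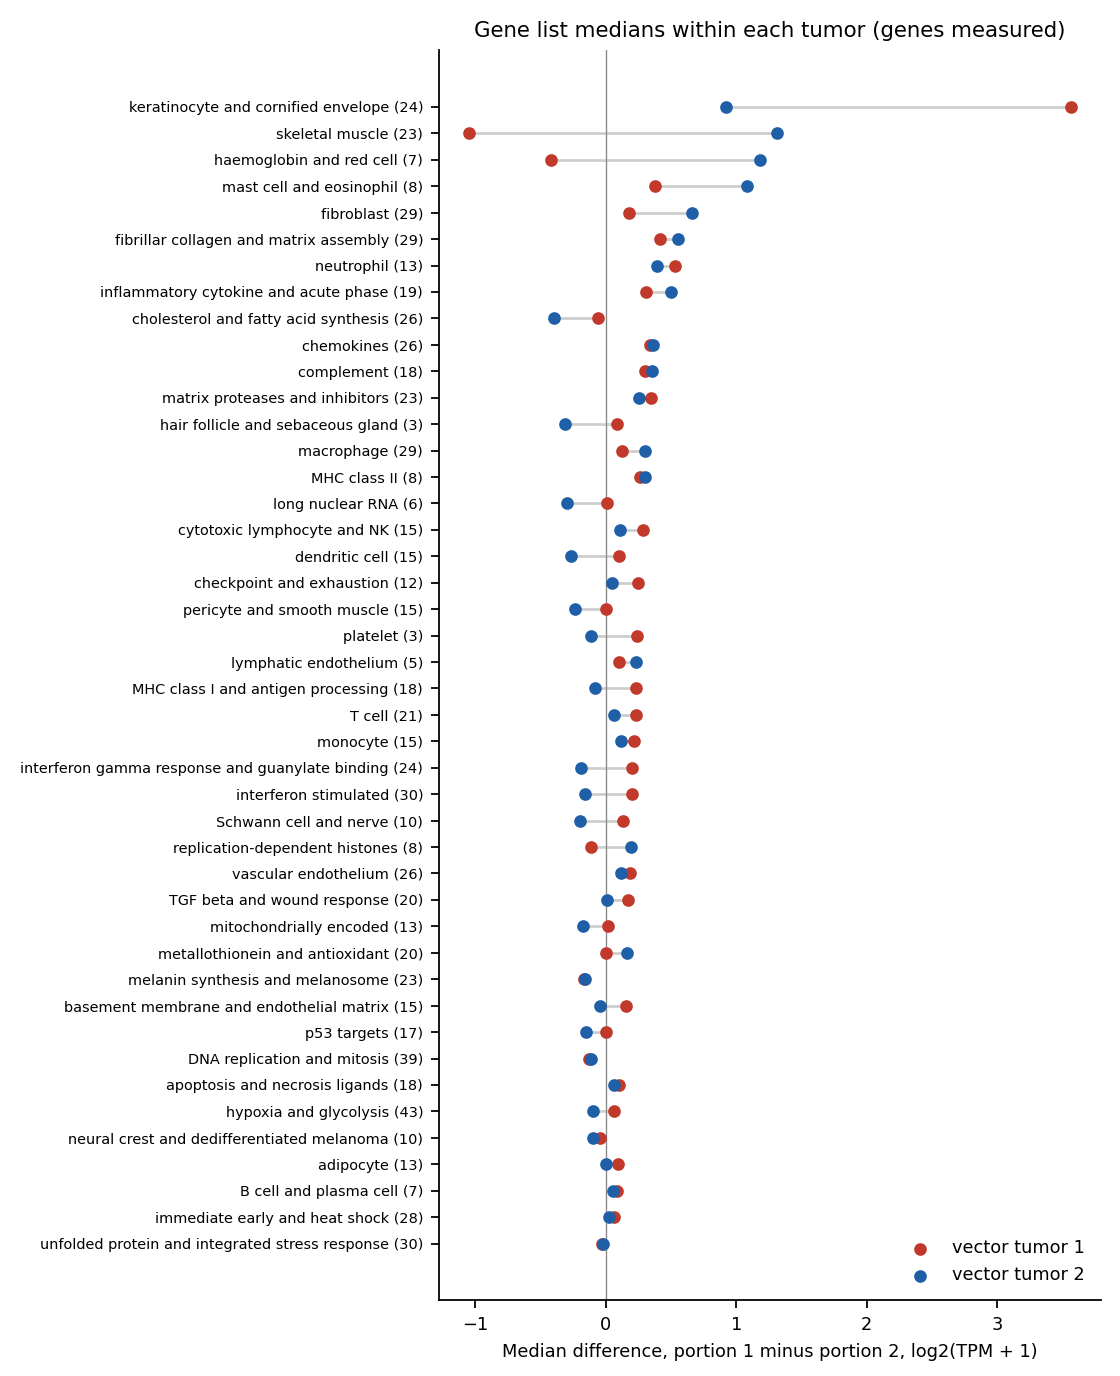
Each row is a gene list with the number of its measured genes, and the points give the list's median difference, portion 1 minus portion 2 in log2(TPM + 1), in vector tumor 1 (red) and vector tumor 2 (blue). The keratinocyte list stands at 3.56 and 0.92, the muscle list at -1.05 and 1.31, and the lists toward the bottom stand near 0 in both tumors.

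Of 44 gene lists, 33 were not described in detail, since fewer than 3 of their members were past 2-fold and their medians were near that of all genes. Their medians were between -0.16 and 0.30 in tumor 1 and between -0.39 and 0.36 in tumor 2, and 13 of the 44 lists had 0 members past 2-fold in either tumor. Melanin synthesis and melanosome genes, which read out the tumor cells, were among those 13, with medians of -0.16 and -0.16 over 23 members. Tyr, the first enzyme of melanin synthesis, stood at 168, 198, 191 and 230 TPM (each portion 2 the higher), and Tyrp1 at 4624, 5036, 4288 and 4796 TPM. DNA replication and mitosis genes had medians of -0.13 and -0.11 over 39 members, and Mki67, a marker of dividing cells, stood at 70.5, 73.3, 73.7 and 94.5 TPM. Above 0, thus higher in portion 1, were 7 and 6 of the 23 melanin genes in tumors 1 and 2, and 5 and 12 of the 39 replication genes, beside 47.3% and 34.0% of all genes. In tumor 2 both lists were thus close to all genes, and with size factors (median of ratios), where the median of all genes there was 0.0099, 11 of 23 and 21 of 39 were above 0. In tumor 1 the counts after size factors were 7 of 23 and 6 of 39, with 49.7% of all genes above 0.

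The measured members of the interferon and antigen presentation lists differed by less than 2-fold. H2-Q5, a class I gene outside the lists, is described below. Of 30 measured interferon stimulated genes 25 were above 0 in tumor 1, with a median of 0.20 beside -0.011 over all genes. In tumor 2, 8 were above 0, with a median of -0.16 beside -0.11, and after size factors 13 were, with a median of -0.024, so that list stood close to the whole. All 18 measured MHC class I and antigen processing genes were higher in portion 1 of tumor 1, by 0.083 to 0.95. In tumor 2, 5 of 18 were above 0, with a median of -0.079, and 10 of 18 after size factors, again close to all genes. MHC class II genes, led by the invariant chain Cd74 at 806, 594, 1203 and 992 TPM, had medians of 0.26 and 0.30. Cholesterol and fatty acid synthesis genes were all lower in portion 1 of tumor 2, with differences of the 26 members between -0.78 and -0.050 and a median of -0.39, beside -0.11 over all genes. After size factors 2 of the 26 were above 0 there and the median was -0.26, and in tumor 1 the median was -0.063.

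T cells are the target of the antibody that every mouse received, and their transcripts were low in all portions. Cd3e, a subunit of the T cell receptor complex, stood at 2.42, 1.78, 6.37 and 2.78 TPM, a difference of 0.96 in tumor 2. Cd8a, of cytotoxic T cells, stood at 2.22, 2.62, 3.17 and 3.16 TPM and differed little. The granule protease Gzmb stood at 4.57 and 2.49 TPM in tumor 1 and at 9.77 and 7.93 in tumor 2, so that both portions of tumor 2 were above both of tumor 1. Pdcd1, which encodes PD-1, stood at 2.23, 1.58, 2.23 and 2.13 TPM. None of 21 measured T cell genes was past 2-fold in either tumor, and 1 of 12 checkpoint genes was, in tumor 1. Over all genes the share was 2.99% in tumor 1 and 3.72% in tumor 2. Counts this low in lists this small do not set T cell or checkpoint genes apart from all genes.

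The receptor sequences that the authors assembled from the same libraries gave the same order as Gzmb for the alpha chain. Tumor 2 gave 21 and 15 distinct T cell receptor alpha sequences (clonotypes) in portions 1 and 2, and tumor 1 gave 10 and 8. For the beta chain, tumor 2 gave 14 and 8 clonotypes and tumor 1 gave 9 and 7. Immunoglobulin heavy chain clone counts were 2 and 2 in tumor 1 and 9 and 3 in tumor 2, beside 66 to 91 in the Colq libraries. In each tumor portion 1 gave at least as many alpha and beta clonotypes as portion 2, but counts this small, with a depth that is unknown, do not show a difference between portions.

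Single genes outside the lists were among the furthest apart between portions, some in 1 tumor and some in both. Cacnb4, a subunit of voltage-gated calcium channels, stood at 1.8 and 28.4 TPM in tumor 1 and at 17.0 and 2.87 in tumor 2, while the other 4 libraries held 1.87 to 2.94 TPM. Dync2i1, a dynein intermediate chain of cilia, stood at 64.0 TPM in portion 2 of tumor 1 and between 6.66 and 7.09 in the other portions. Mst1r, the receptor of macrophage stimulating protein, was higher in portion 2 of both tumors, at 2.25 and 8.30 TPM and at 2.01 and 8.44. H2-Q5, a class I gene of the Q region with near-identical neighbours, stood at 55.9 TPM in portion 2 of tumor 2 and between 3.89 and 5.70 in the others.

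Genes with names that mark them as numbered models or pseudogenes supplied much of the counts past 2-fold. Numbered gene models were 11.7% of the genes measured but 48.9% of those past 2-fold in tumor 1 (202 genes) and 46.3% in tumor 2 (238 genes). The pseudogene Rpl39-ps stood at 120.4 TPM in portion 1 of tumor 1 and at 0 in the 7 other libraries, and Rpl27-ps3 at 78.3, 77.9, 0 and 55.3 TPM in the 4 portions. Rpl35a-ps2 and Rpl35a-ps3 carried identical values in every portion. Reads of such near-identical copies cannot be placed with certainty, and these differences are uncertain. Without numbered models, pseudogenes, receptor segments and small RNAs, 186 of 12040 genes were past 2-fold in tumor 1 (1.54%) and 237 in tumor 2 (1.97%).

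The share of genes past 2-fold was lower from 5 TPM upward than below. Between 1 and 2 TPM it was 9.27% in tumor 1 and 9.81% in tumor 2, between 2 and 5 TPM 7.08% and 10.1%, between 5 and 20 TPM 2.75% and 3.49%, and from 100 TPM upward it was 0.256% and 0.512%, which is 4 and 8 genes. The genes of 100 TPM or more past 2-fold in tumor 2 included the globins described above.

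**Figure D4:**
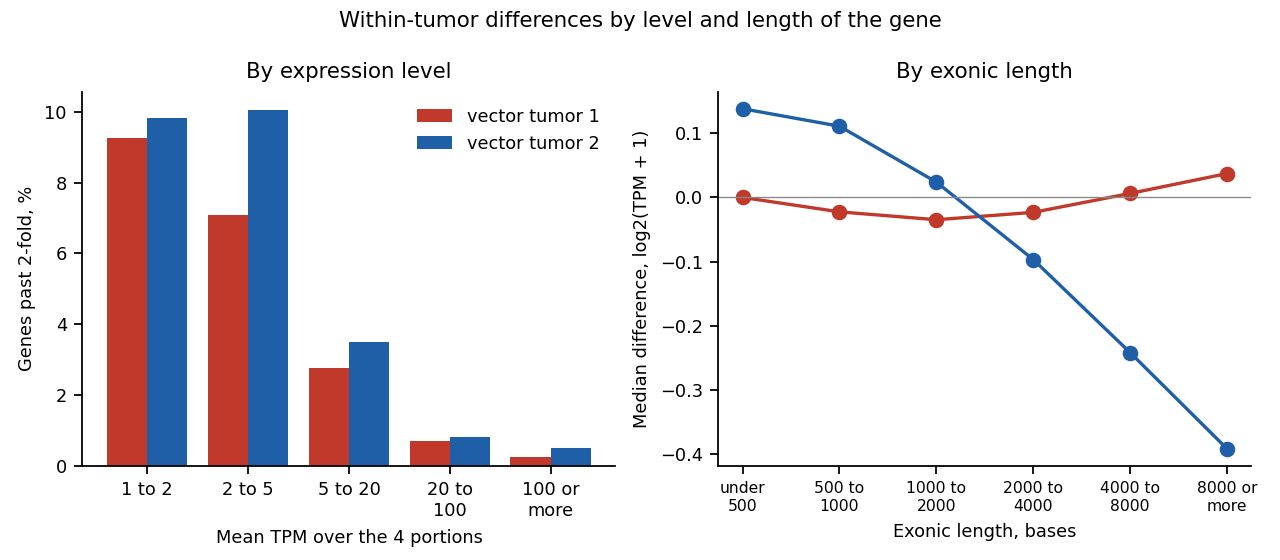
The left panel gives the percentage of genes past 2-fold between portions, by the mean TPM over the 4 portions, and the right panel the median difference in log2(TPM + 1) by exonic length in bases, for vector tumor 1 (red) and vector tumor 2 (blue). The percentage goes from above 9 in the lowest level class to 0.256 and 0.512 in the highest, and the median of tumor 2 goes from 0.14 for the shortest genes to -0.39 for the longest.

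The genes past 2-fold in the 2 tumors overlapped in part. Of the genes past 2-fold, 129 were so in both tumors, which is 31.2% of those of tumor 1 and 25.1% of those of tumor 2. Over all genes, 3.72% were past 2-fold in tumor 2 and 2.99% in tumor 1. Portion numbers were the same for 79 of the 129 and opposite for 50. Numbered gene models made up 68 of the 129. By mean level, 26 of the 129 genes were between 1 and 2 TPM, 43 between 2 and 5 TPM and 48 between 5 and 20 TPM. Between 20 and 100 TPM there were 11, and from 100 TPM upward 1. Across the 13824 genes, the differences of the tumors had a Pearson coefficient of 0.12 and a Spearman coefficient of -0.019, and their absolute sizes a Spearman coefficient of 0.14. These coefficients are descriptions over genes, which share libraries and are not independent. Within the keratinocyte list the Pearson coefficient was 0.75 over 24 genes, and within the muscle list it was -0.37 over 23, and without both lists the coefficient over the remaining 13777 genes was 0.10.

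Portions of 1 tumor were about as far apart as pieces of different vector tumors. The SD over genes of the log2 difference was 0.53 and 0.52 within tumors 1 and 2, and between 0.44 and 0.56 for the 8 pairs of libraries from different vector tumors. The share of genes past 2-fold was 2.99% and 3.72% within a tumor and between 2.70% and 5.22% between vector tumors. By the SD, 0 of the 4 portions had the other portion of its own tumor as its nearest vector library, and by the share past 2-fold 1 of 4 did (portion 2 of tumor 1). Portion 1 of tumor 1 was nearest to portion 1 of tumor 2 (SD 0.49), and portion 2 of tumor 2 was nearest to vector tumor 3 (SD 0.44). Without the keratinocyte and muscle lists these counts were again 0 and 1. The median absolute difference, which a few far genes hardly move, gave another order for tumor 1. It was 0.146 between the portions of tumor 1, below the 0.149 to 0.225 of pairs from different vector tumors. By it the portions of tumor 1 were nearest to each other. Between the portions of tumor 2 it was 0.221, within that range. Vector tumor 3 had no part in choosing the genes, which were kept by their mean over the portions. Its distances to the portions are therefore not on equal terms with those among portions.

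On the genes kept here, libraries of the 3 different Colq tumors differed from each other less than portions of 1 vector tumor did. Their SD was between 0.32 and 0.35, with between 1.11% and 1.29% of genes past 2-fold. The median absolute difference was 0.105 to 0.111 between Colq tumors and 0.146 to 0.221 between portions. However, genes were kept by their mean over the vector portions alone. Krt6b, high in a vector portion and at 0 TPM in the Colq libraries, adds no spread to Colq pairs. How far this choice of genes lowered the Colq spread was not tested. Colq libraries against vector libraries stood at an SD between 0.63 and 0.81, with between 12.7% and 29.9% of genes past 2-fold.

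**Figure D5:**
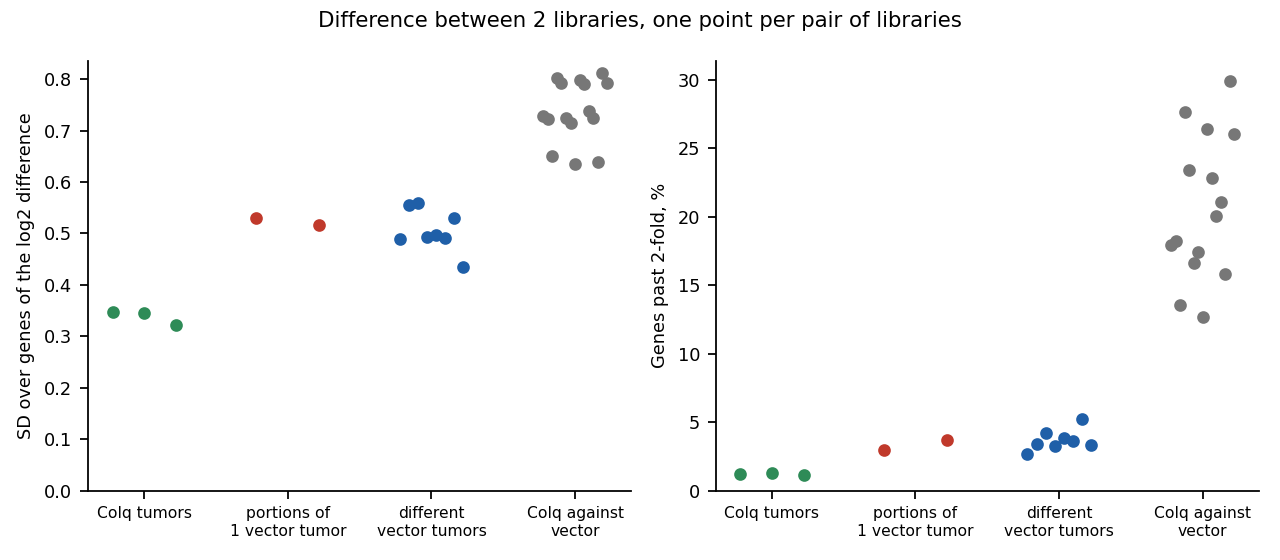
Each point is a pair of libraries, with the SD over genes of the difference in log2(TPM + 1) on the left and the percentage of genes past 2-fold on the right. Portions of 1 vector tumor (red, 2 pairs) lie within the range of different vector tumors (blue, 8 pairs), Colq tumors lie below, and pairs of a Colq and a vector library lie above. The genes were kept by their mean over the vector portions alone.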

How the data were processed

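RNA of homogenized tumor pieces was made into poly-A libraries that keep no strand, per the labels' protocols, so overlapping antisense genes were not separated. The values deposited by the authors are log2(TPM + 1), as the values themselves show. They came from RSEM on mm39, per the submitters' processing notes. The choice of aligner and annotation was not given in the sources used here. Receptor clonotypes, clones and clonality were deposited by the authors from MiXCR, per the labels, with no stated scaling. Groups, tumors and portions came from the sample titles. The authors' own table of Colq against vector was not used.

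Values were returned to TPM at 2 decimals, genes with a mean of at least 1 TPM over the 4 portions were kept, and portions were subtracted (Python 3.11.15, numpy 2.4.6, pandas 2.3.3, statsmodels 0.14.6, matplotlib 3.10.9). No difference between portions was tested. Dixon's criterion was used to mark single libraries that stood apart. Exonic lengths came from GENCODE vM21 on GRCm38, matched by symbol for 95.8% of genes. The script for counts was tested on simulated pairs.

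The portions, lists and rules were chosen with earlier results of these data known. A list was described where at least 3 members were past 2-fold or its median was 0.5 or more from that of all genes in either tumor. Named genes were the 15 furthest apart per direction and tumor (passing over numbered models, receptor segments and small RNAs), the 10 furthest apart in both tumors, and up to 4 members of each described list. Further members named for their function, Lgals7, the globins and the T cell, interferon and melanocyte genes among them, were chosen after their values were seen. Alternatives were other pseudocounts, filters and scalings, and leaving out gene classes or a length trend (added after seeing the data).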

Additional observations from a re-analysis of the deposited data

Results flagged for a closer look

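Among 66 quantities (summed TPM of gene lists, receptor measures and library measures), 7 had 1 of the 5 vector libraries set apart from the rest by a gap larger than Dixon's 95% limit, where chance flags about 1 group in 20 if samples are independent. The 5 libraries come from 3 tumors, so portions of a tumor are not independent, and that rate and the limit are approximate here. The summed keratinocyte list stood at 845.4 TPM in portion 1 of tumor 1, against 90.0 to 175 in the other 4 vector libraries. Lgals7, abundant in every portion, made up most of the sum in the other portions. The summed neutrophil list stood at 161 TPM in the same portion, against 18.5 to 48.4. The neural crest and dedifferentiated melanoma list summed to 129 TPM in vector tumor 3. Portion 2 of tumor 2 had an alpha chain clonality of 0.0531. Portion 1 of tumor 2 had 14 beta chain clonotypes and 9 heavy chain clones. Portion 2 of tumor 1 had 19887 genes above 0, the lowest of the 5.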

How the results depend on the processing

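With a pseudocount of 0.1, 719 genes were past 2-fold in tumor 1, 880 in tumor 2 and 275 in both. With a mean of at least 5 TPM the counts were 150, 190 and 60. With no filter, 677 genes were past 2-fold in tumor 1, and 5 lists, in place of 8, had a median at least 0.5 from that of all genes. Without numbered gene models, pseudogenes and small RNAs the counts were 186, 237 and 53. The share past 2-fold was then 1.54% in tumor 1 and 1.97% in tumor 2, in place of 2.99% and 3.72%. Numbered models alone were 48.9% and 46.3% of the genes past 2-fold. Across the 10 alternatives, the correlation of the differences and the ratio of within-tumor to between-tumor spread stayed within the tolerances of 0.1 and 1.5 times. Size factors moved the median of all genes in tumor 2 from -0.11 to 0.0099. A pair of list medians changed sign. The mast cell and eosinophil median of tumor 2 was -0.057 at 5 TPM, where Kit was the member left, and the red cell median was -0.072 without globins, which had been removed. The keratinocyte and muscle medians kept their direction in both tumors under the alternatives that held these lists.

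No paired analysis was possible because the differences come from no test: each portion is 1 library, and the labels do not say whether portion numbers correspond across tumors. For the same reason no replicate was left out. TPM keeps no depth, so counting error at low levels is unknown, and genes under 5 TPM, which supply most of the counts past 2-fold, are the least certain.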

Other observations

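Vector tumor 3, which has no second portion, held inner root sheath genes of the hair follicle that the 4 portions lacked: Krt25 stood at 4.65 TPM, Krt71 at 4.22 and Tchh, trichohyalin, at 2.68. Krt25 and Krt71 were at 0 TPM in every other library. In the same library Krt14 stood at 0.18 TPM and Krt1 at 0.

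The Colq libraries held keratins in other proportions than portion 1 of tumor 1. Krt15, a basal and follicle stem cell keratin, stood at 0.96 TPM in that portion and at 5.69 to 7.49 in the Colq libraries, and Krt77, an epidermal keratin, at 0.15 and at 5.34 to 5.99 TPM.

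Vector portion 1 of tumor 1 and the library of Colq tumor 1 had the same deposited alpha chain values, with 10 clonotypes, 13 clones, an entropy of 3.24 and a clonality of 0.025. Their beta chain values differed, at 9 and 26 clonotypes.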
